A study of Arabidopsis thaliana with 12 samples.

Results

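CLV3 (AT2G27250), LOB (AT5G63090) and LAS (AT1G55580) are 3 genes of the shoot meristem and of the boundaries between the meristem and its organs. They were chosen by gene symbol or locus, each was represented by 1 probe, and all 3 were among the 18125 features tested, of which 10654 had a gene name. The study examined inflorescences of Arabidopsis thaliana with flower buds of stages 1 to 9, from 35S:HAN-GR plants of the Landsberg erecta (Ler) background. Every plant carried the transgene, so the controls did too. The 35S promoter is active in most plant tissues and is not limited to the boundary domain in which HANABA TARANU (HAN) is normally expressed. HAN is a GATA-type transcription factor, and its fusion to the glucocorticoid receptor (GR) stays in the cytoplasm until dexamethasone (Dex) is given. Tissue was taken 4, 12 and 72 h after 10 µM Dex or a mock treatment, and each of 12 arrays compared the Dex and mock RNA of the same time, with 4 biological replicates per time point and the dyes swapped between replicates. Dex-treated plants without the fusion were not analysed here, so effects of Dex and of nuclear HAN-GR cannot be told apart. HAN itself had no named probe and is not reported.

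The shoot meristem keeps a pool of stem cells at its tip and sets off organs at its flanks. CLV3 is the secreted peptide made by the stem cells. It is perceived by receptor kinases such as CLV1 and restricts the stem-cell promoting factor WUS. At the flanks, narrow bands of slowly dividing cells separate organ from meristem. LOB is the founding member of the plant-specific LOB domain (LBD) transcription factors and marks the base of lateral organs, and LAS is a GRAS-family regulator needed for axillary meristems.

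All values are log2 ratios, taken here as Dex over mock, after the median of the tested features was subtracted on each array. The direction of the ratio is not given in the sources used here. Of 12 pairs of arrays with opposite labelled dye at the same time point, 11 correlated above 0 across gene probes and the lowest was at -0.003 (across tested features the range was 0.06 to 0.64), so the values were used as deposited. With the values at the limits of the deposited scale kept, however, 12 of 18 pairs at the same time point correlated below -0.3, from -0.82 to -0.49, and at 4 h this held for arrays with the same labelled dye. Such correlations bear only on whether the arrays share an orientation, and cannot tell Dex over mock from mock over Dex. Reading the ratios as Dex over mock is thus an assumption. The direction is not settled, and with the sign turned every value below changes its sign. The limits were log2 ratios of 6.64 and -6.64. Between 9.43% and 17.2% of the values of an array lay at a limit, and on each array at least 90.6% of these had the sign of its blank spots. At 12 and 72 h this sign was plus with Dex in Cy5 and minus with Dex in Cy3. At 4 h it was minus for replicates 1 (Cy5) and 4 (Cy3) and plus for 2 (Cy5) and 3 (Cy3). Without limit values, 4 h pairs of opposite dye but like sign correlated at 0.59 and 0.61, those of the same dye at 0.08 and 0.05. The dye term of the fit used the labels. A value at a limit was treated as missing.

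Of the 3 genes, LOB had a value on all 12 arrays, LAS on all 12 and CLV3 on 9. None of the 18 tests on the 3 genes (3 time points and 3 differences between time points for each) passed a limma adjusted p of 0.05, and 2 had an unadjusted p under 0.05. For comparison, 11.1% of the tested features passed at 4 h, 15.8% at 12 h and 20.7% at 72 h. The differences passed for 2.43% of features between 4 and 12 h (441 features, or 157 with the replicate number as a block), 4.14% between 12 and 72 h and 8.55% between 4 and 72 h.

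The ratio of LOB was below 0 on each of the 8 arrays of 4 and 12 h and above 0 on each of the 4 arrays of 72 h. At 4 h LOB was at -3.07, -0.17, -0.14 and -0.92 on replicates 1 to 4. Replicate 1 was far lower than the other arrays of that time. At 12 h LOB was at -0.28, -0.10, -0.36 and -0.51, and at 72 h at 0.39, 0.64, 1.36 and 0.37. For comparison, all values lay below 0 for 18% of features at 4 h and 22.4% at 12 h, and above 0 for 16% at 72 h. The 72 h values did not overlap with those of 4 h or of 12 h. Values at 72 h that all lay above those of 4 h were found for 8.58% of features, and above those of 12 h for 7.41%. The whole sign pattern of LOB, below 0 at 4 and 12 h and above 0 at 72 h on every array with a value, was shared by 104 features (0.574%), 56 of them named, and its mirror image was found for 24 (0.132%).

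The mean of LOB was -1.07 ± 1.38 (SD, n = 4) at 4 h, a 2.11-fold lower level in the assumed direction, with a 95% interval of the fit from -1.90 to -0.25 and a limma adjusted p of 0.11. In these bulk samples, fewer cells that express a gene and less RNA per cell cannot be told apart. At 12 h LOB was at -0.31 ± 0.17 (interval -1.14 to 0.52, limma adjusted p = 0.72) and at 72 h at 0.69 ± 0.46 (interval -0.14 to 1.52, limma adjusted p = 0.22). With the sign turned the means are 1.07, 0.31 and -0.69. The difference between 72 h and 4 h was the largest of the LOB differences, at 1.76 (SE 0.53, interval 0.59 to 2.94), but its limma adjusted p was 0.070. Between 72 h and 12 h it was 1.00 (SE 0.53, adjusted p = 0.34), and between 12 h and 4 h 0.76 (SE 0.53, adjusted p = 0.66). The size of the 72 h minus 4 h difference exceeded that of 98.0% of the tested features.

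**Figure D1:**
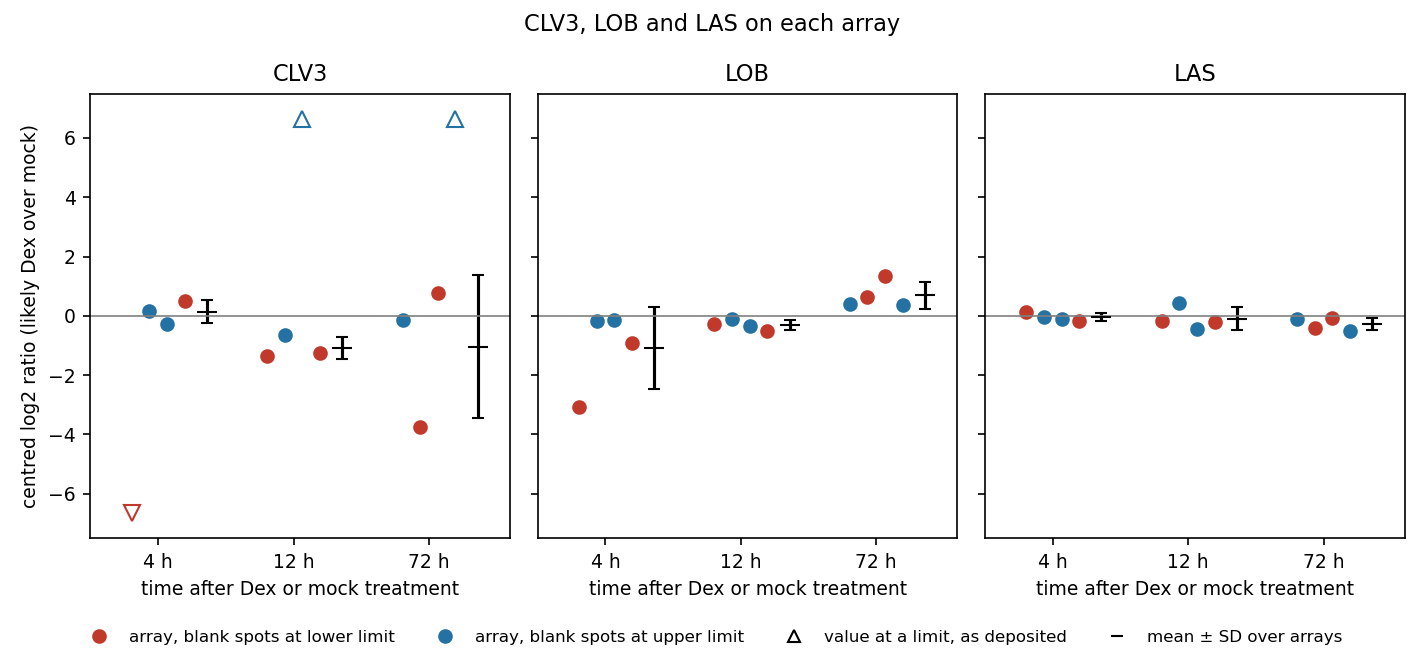
Centred log2 ratios of CLV3, LOB and LAS on each array at 4, 12 and 72 h (replicates 1 to 4 from left to right). Filled points are arrays, coloured by the limit at which the array's blank spots lay, open triangles are values at a limit drawn as deposited, and the bars are the mean ± SD over the filled points. LOB lies below 0 on the 8 arrays of 4 and 12 h and above 0 on the 4 arrays of 72 h, CLV3 has 3 values at a limit, and LAS stays between -0.51 and 0.44.

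The LOB tests depended on 4 h replicate 1. Without it, the 4 h mean was -0.41 ± 0.45 (n = 3) and the SD between arrays within time points dropped from 0.85 to 0.38. The difference between 12 h and 4 h went from 0.76 to 0.11. LOB then passed at 72 h (0.69, limma adjusted p = 0.027), and the difference between 72 h and 4 h passed at 1.11 (adjusted p = 0.048). Without 4 h replicate 2, whose value was near 0, LOB passed at 4 h (-1.51, adjusted p = 0.039) and in the difference between 72 h and 4 h (2.20, adjusted p = 0.032). With any of the other 10 arrays left out, no LOB test passed. Quantile normalisation brought LOB at 4 h past the threshold (-0.96, adjusted p = 0.047), and array weights reduced the difference between 72 h and 4 h to 0.95 (adjusted p = 0.14), the 4 h value to -0.55 and the 72 h value to 0.41. The 12 h value was -0.49 without 12 h replicate 2 and -0.14 without 12 h replicate 4, and passed in neither.

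On 4 h replicate 1, the array with the lowest LOB value, 99.85% of the values at a limit were negative. A ratio as low as that of LOB was reached by 102 of 18040 tested features on that array (0.565%), and an equally large positive ratio by 9. The difference of LOB between 72 h and 4 h was 2.99 among arrays whose blank spots lay at the lower limit and 0.53 among those at the upper limit, with 2 arrays per time point in each. By labelled dye it was 2.00 with Dex in Cy5 and 1.53 with Dex in Cy3. The difference between 12 h and 4 h was 1.60 on arrays at the lower limit and -0.08 on those at the upper limit. The part of these array properties in the LOB result was not tested.

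CLV3, the stem-cell ligand, was the least precisely measured of the 3 genes. At 4 h it was at 0.17, -0.26 and 0.51 on replicates 2 to 4, around 0. At 12 h replicates 1, 2 and 4 gave -1.36, -0.65 and -1.24, all below 0. At 72 h replicates 1 to 3 gave -0.12, -3.76 and 0.78, a wide spread around 0. The remaining arrays, 4 h replicate 1, 12 h replicate 3 and 72 h replicate 4, had CLV3 at a limit, at -6.64, 6.64 and 6.64. Each of these limits had the sign of most limit values on its array, of which 99.85%, 7.11% and 0.275% were negative. They entered no mean, and CLV3 had just the 3 values per time point needed for a test.

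The CLV3 means were 0.14 ± 0.39, -1.09 ± 0.38 and -1.04 ± 2.41 (SD, n = 3 each) at 4, 12 and 72 h. In the fit, which adjusts for the labelled dye, CLV3 was at 0.25 (95% interval -1.46 to 1.96, limma adjusted p = 0.95), -0.97 (-2.68 to 0.74, adjusted p = 0.51) and -0.92 (-2.63 to 0.79, adjusted p = 0.42). With the sign turned the 12 h value is 0.97. The intervals thus leave room for a ratio up to 6.41-fold lower at 12 h and 3.90-fold higher at 4 h. The 4 h and 12 h values did not overlap, as for 14.9% of features in either direction, but the fitted difference of -1.22 (SE 1.01) had a limma adjusted p of 0.74. With the replicate number as a block it was -0.60 (adjusted p = 0.88). All values at 12 h lay on the same side of 0 for 42.5% of features and below 0 for 22.4%. Of 18125 features, 16586 had values on all 12 arrays, whereas CLV3 had 3 values per time point. With 3 values, no overlap or a shared side of 0 is reached more easily than with 4. These shares are thus not a like background for CLV3. The CLV3 values compared also leave out those at a limit, -6.64 at 4 h and 6.64 at 12 h.

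72 h replicate 2, at -3.76, set much of the spread in CLV3. On that array 99.4% of the values at a limit were negative, and 151 of 17755 tested features (0.850%) were as low as CLV3. Without this array CLV3 passed at 12 h, at -1.08 (limma adjusted p = 0.029), its SD within time points went from 1.42 to 0.45, and its 72 h value turned to 0.33 (adjusted p = 0.47). Fitted on the 12 h arrays alone, CLV3 was at -0.98 (adjusted p = 0.0056). That fit drew a mean and a dye term from 3 CLV3 values, 1 of them with Dex in Cy5. It called 4801 features at 12 h, against 2867 in the reported fit. With a block for the replicate number, CLV3 at 12 h was -0.21 (adjusted p = 0.91). Keeping the limit values turned the sign at each time point, to -1.56, 0.84 and 0.89.

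**Figure D2:**
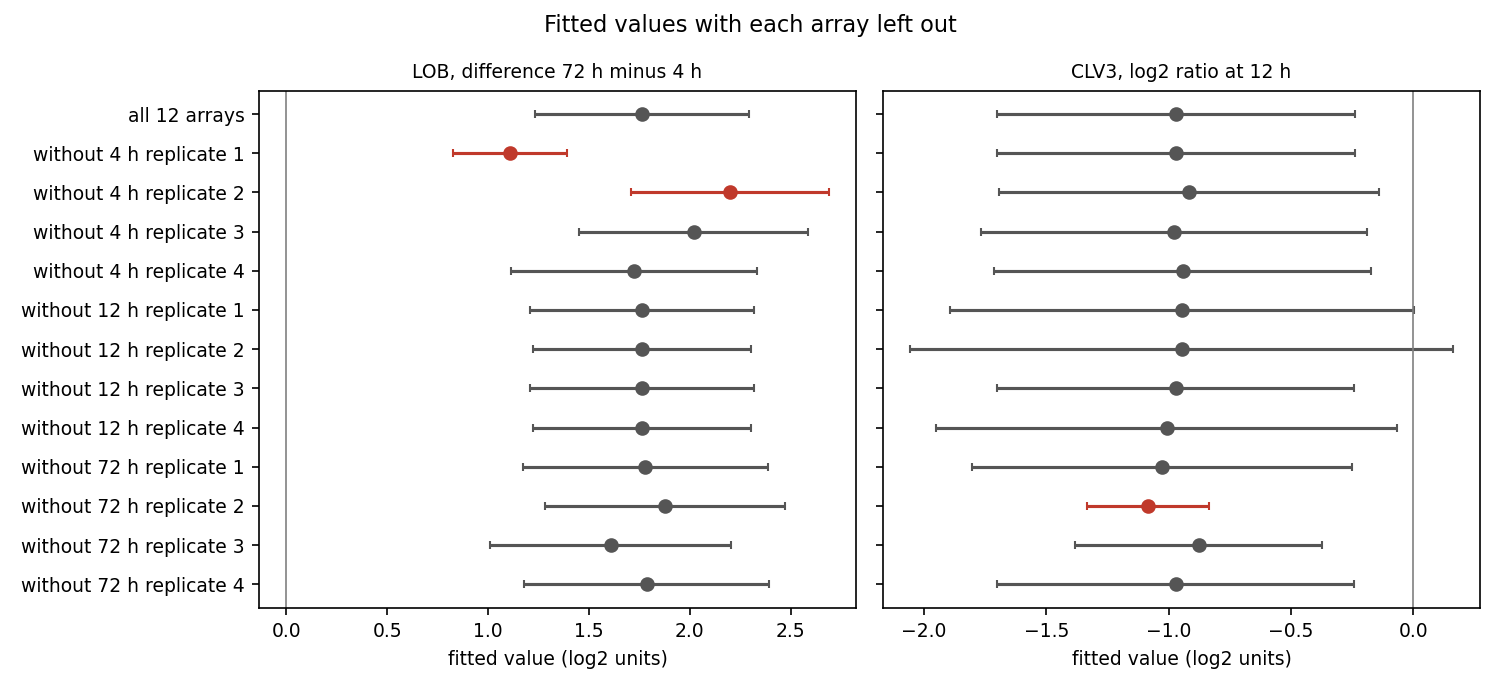
Fitted values with each array left out in turn, for the difference of LOB between 72 h and 4 h (left) and for CLV3 at 12 h (right), in log2 units with bars of 1 SE; red marks a limma adjusted p under 0.05. The LOB difference ranges from 1.11 to 2.20 and passes without 4 h replicate 1 or 2, and CLV3 passes without 72 h replicate 2.

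LAS, the axillary meristem regulator, had the smallest ratios of the 3 genes. It was at 0.14, -0.04, -0.11 and -0.18 at 4 h, at -0.16, 0.44, -0.46 and -0.22 at 12 h, and at -0.11, -0.40, -0.07 and -0.51 at 72 h. It lay below 0 on 10 of 12 arrays, and the time points overlapped. At 72 h all 4 arrays were below 0, as for 16.6% of features. The means were -0.05 ± 0.14, -0.10 ± 0.38 and -0.27 ± 0.21 (SD, n = 4 each), with limma adjusted p of 0.95, 0.76 and 0.19.

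The intervals of LAS were the narrowest of the 3 genes. At 4 h the interval reached from -0.35 to 0.25, at 12 h from -0.40 to 0.20 and at 72 h from -0.57 to 0.03, so that the most distant bound was a 1.49-fold lower level. With the sign turned the 72 h mean is 0.27. Without 72 h replicate 4 the 72 h value was -0.17 and the difference from 4 h -0.12, and with array weights they were -0.43 and -0.37. None of these passed. At 12 h LAS was at -0.28 without replicate 2 and at 0.054 without replicate 3. Differences between time points were -0.05, -0.17 and -0.23 (SE 0.19 each) for 12 h minus 4 h, 72 h minus 12 h and 72 h minus 4 h, with adjusted p of 0.97, 0.66 and 0.51.

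The 3 genes differed in how well their arrays matched. The SD between arrays within time points was 1.42 for CLV3, 0.85 for LOB and 0.27 for LAS, against a median of 0.29 over all tested features. CLV3 was more variable than 96.9% of the features and LOB than 91.9%, whereas LAS stood at 43.5%. At 72 h the estimate of LOB lay within the interval of CLV3 and outside that of LAS. The intervals of LOB (-0.14 to 1.52) and LAS (-0.57 to 0.03) overlapped, and differences between genes were not tested.

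**Figure D3:**
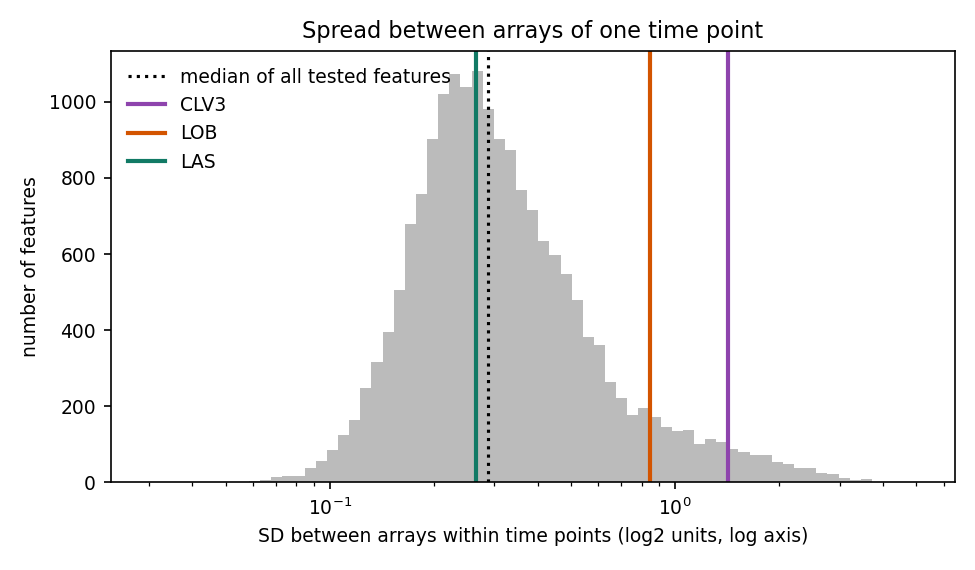
Histogram of the SD between arrays within time points for the 18125 tested features (log axis, log2 units), with the median (dotted) and the 3 genes as vertical lines. LAS, at 0.27, lies beside the median of 0.29, and LOB and CLV3, at 0.85 and 1.42, lie in the right tail.

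Few other genes of the same pathways could be identified. Of the 26090 gene probes, 13960 had a gene name and 12130 had none. Named probes were found for 4 of 30 meristem loci and 4 of 24 boundary loci, and why so few was not tested. Below, genes called measured are those tested under a gene name, and other listed genes may lie among the unnamed probes. Of 54 loci listed for meristem maintenance and for organ boundaries, 8 were tested, the 3 genes and 5 others. Among the 4 tested meristem genes 1 was higher and 1 lower at 4 h, and 1 was lower at 12 h and at 72 h, with medians of 0.24, -0.40 and -0.51 against 0.0029, 0.012 and 0.0047 over all features. Over all features 4.21% were higher and 6.87% lower at 4 h, 5.34% and 10.5% at 12 h, and 9.88% and 10.9% at 72 h. ULT1, a SAND-domain protein that limits the size of floral meristems, rose at 4 h to 0.53 ± 0.17 (n = 4; limma adjusted p = 0.045). That call was lost without any of 4 h replicates 1 to 4 (adjusted p = 0.12, 0.16, 0.068 and 0.20), 12 h replicates 1 to 4 (0.057, 0.063, 0.071 and 0.070) or 72 h replicate 4 (0.051). It was also lost with a replicate block (adjusted p = 0.070), with only the 4 h arrays (0.078) and with limit values kept (0.11). ULT1 was at 0.42 ± 0.14 at 12 h and 0.31 ± 0.46 at 72 h and did not pass there. Without 72 h replicate 1 it passed at 12 h and 72 h (0.42 and 0.49, adjusted p = 0.048 and 0.045), and without 72 h replicate 3 at 12 h (adjusted p = 0.034). It also passed at 12 h with quantile normalisation (0.51, adjusted p = 0.017), with the 12 h arrays alone (adjusted p = 0.021) and with array weights (adjusted p = 0.0016), and at 72 h with array weights (adjusted p = 0.041). POL, a phosphatase that acts downstream of the CLV receptors, was at 0.23 ± 0.37, 0.18 ± 0.07 and -0.11 ± 0.21 and did not pass, but without 4 h replicate 3 it passed at 4 h (0.42, adjusted p = 0.038), as it did with array weights (0.41, adjusted p = 0.011).

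ARR15, a type-A cytokinin response regulator, fell at all 3 time points, to -1.73 ± 0.41, -1.64 ± 0.12 and -1.10 ± 0.55 (n = 4 each; limma adjusted p = 0.00014, 0.00013 and 0.0017), and was the lower gene in each count.

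Among the 4 tested boundary genes, the zinc-finger factor RBE, needed for petal formation, rose at each time point, to 0.69 ± 0.18, 1.21 ± 0.22 and 1.13 ± 0.25 (n = 4 each; limma adjusted p = 0.0035, 6.8e-05 and 0.00011). The trihelix factor PTL fell at 4 h (-0.46 ± 0.11, limma adjusted p = 0.022). That PTL call was lost when 4 h replicate 2, 3 or 4 was dropped (adjusted p = 0.079, 0.11 and 0.097), in a fit to the 4 h arrays alone (0.081) or with limit values kept (0.076). LOB and LAS made up the rest. The medians of these 4 genes were -0.25, -0.18 and 0.34 at 4, 12 and 72 h, and RBE was the only one of them past the threshold at 12 and 72 h in the reported fit. With array weights PTL also passed at 12 h (-0.32, adjusted p = 0.0026).

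The 3 other measured relatives of CLV3 were CLE26, CLE27 and CLE40, which encode small signalling peptides of the same CLE family. CLE27 was at 0.03 ± 0.19, 0.10 ± 0.08 and 1.10 ± 0.79 (n = 4, 4 and 3), and it rose at 72 h (limma adjusted p = 0.0064), with 0.81, 1.99 and 0.48 on replicates 1, 3 and 4. The value on 72 h replicate 2 was at the lower limit, and with limit values kept the CLE27 estimate was -0.81 (adjusted p = 0.76). With the 72 h arrays alone CLE27 did not pass (adjusted p = 0.069), and without 72 h replicate 3 it was 0.59 and passed. CLE40, the nearest relative of CLV3 in function and known from the root meristem, was at -0.26 ± 1.19, 2.19 ± 2.49 and 0.83 ± 0.75. Its 12 h mean rested on replicates 3 and 4, at 3.17 and 5.25, with replicates 1 and 2 at -0.06 and 0.39. It did not pass (adjusted p = 0.089 at 12 h). Without 12 h replicate 1 it was 3.01 (adjusted p = 0.041), without 12 h replicate 4 it was 1.02 (adjusted p = 0.44), and with array weights 3.08 (adjusted p = 0.0038). CLE26 was at -0.80 ± 1.67, 0.34 ± 0.11 and -0.12 ± 0.59 and did not pass, but in a fit to the 12 h arrays alone its 12 h value passed (adjusted p = 0.029). None of the 7 listed receptors of CLV3 had a named probe. LBD16, the second named member of the LOB family, and the GRAS gene AT5G41920 each had 7 values, with 1 at 12 h, and were not tested.

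**Figure D4:**
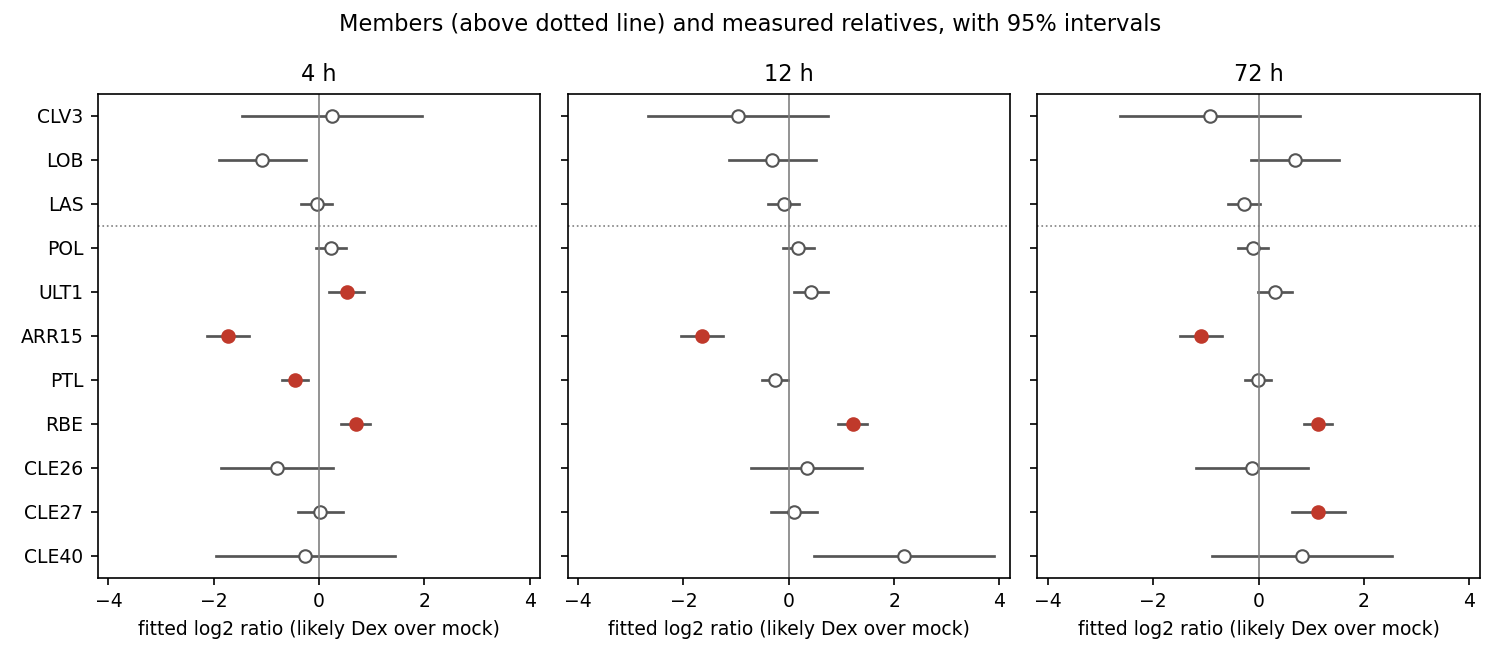
Fitted log2 ratios with 95% intervals at 4, 12 and 72 h for CLV3, LOB and LAS (above the dotted line) and for measured meristem, boundary and CLE genes; filled red points had a limma adjusted p under 0.05. The 3 genes have open points at each time, and RBE and ARR15 pass at all 3.

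Markers of other tissue in the inflorescences were examined beside these values. Of the 2 measured leaf and chloroplast genes, 0 passed at 4 h, LHCB4.1 fell at 12 h (-1.10 ± 0.69, adjusted p = 0.016) and PORB at 72 h (-0.67 ± 0.21, adjusted p = 0.0047). At each time LHCB4.1 lay lower on the arrays whose blank spots were at the lower limit. At 12 h it was at -1.66 and -1.66 on those, and at -0.81 and -0.26 on the others. The part of this array property in the LHCB4.1 ratio was not tested. Of the 3 measured anther genes, AMS was the one past the threshold at 12 h (-0.36 ± 0.05, adjusted p = 0.018). At 72 h both AMS (-0.67 ± 0.23) and EMS1 (-0.63 ± 0.35) fell, the median of the 3 genes was -0.63, and 0 of the 3 passed at 4 h. At 4 h the genes of these lists had unadjusted p of 0.034 for SPL and above 0.05 for the others. The 12 h call of LHCB4.1 was lost when replicate 1, 2 or 4 of that time was dropped (adjusted p = 0.072, 0.079 and 0.078) or the dye term left out (0.050), and that of AMS when replicate 1, 2 or 3 was dropped (0.056, 0.092 and 0.12). With the 72 h arrays fitted alone, AMS, EMS1, PORB and ARR15 did not pass at 72 h (adjusted p = 0.082, 0.18, 0.11 and 0.073). EMS1 was also lost with limit values kept (0.79) and PORB with array weights (0.052). UFO, the measured floral organ identity gene, was at 0.06 ± 0.31, -0.10 ± 0.11 and 0.13 ± 0.14 and did not pass. The part of tissue makeup in the ratios of CLV3, LOB and LAS was not tested, and ratios give no level against which the labelled tissue could be checked.

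The named genes whose ratios ran most like LOB over the 12 arrays were TBL28, AT2G36550, GIS, AT5G50090 and AT5G47350. Their Pearson correlations with LOB were 0.94, 0.94, 0.93, 0.93 and 0.93, the highest among 9626 named genes with values on all 12 arrays. GIS, a zinc-finger gene of trichome formation on the inflorescence, was at -0.37 ± 0.68, 0.23 ± 0.10 and 0.99 ± 0.23 (n = 4 each), and TBL28 at -0.92 ± 0.94, -0.21 ± 0.14 and 0.13 ± 0.31. Both had their widest spread at 4 h, as LOB did. Without 4 h replicate 1 the 5 correlations were 0.79, 0.88, 0.83, 0.91 and 0.84, and these genes ranked 443, 86, 261, 28 and 197, so their place at the top rested on that array.

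For CLV3 the most similar genes over its 9 arrays were AT1G27670, AT1G66870, AT5G66220, AT5G05020 and AT5G17210, at 0.97, 0.97, 0.96, 0.96 and 0.96 among 9815 named genes. Without 72 h replicate 2 they were at 0.92, 0.91, 0.87, 0.85 and 0.88, and the best of them ranked 24th. For LAS the most similar genes were AT1G65120, AT3G45470, AT3G09430, AT3G21770 and AT2G36540, at 0.87, 0.78, 0.73, 0.73 and 0.73 over 12 arrays. No array was left out for LAS, so how far its correlations rested on single arrays was not examined. These correlations describe arrays that share tissue, dye orientation and limit sign, and carry no test.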

How the data were processed

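Per the labels' protocols, RNA was amplified by in vitro transcription, coupled to dyes and co-hybridised. The authors deposited log2 ratios of the channels of each array, and the sources used here do not give their background correction, normalization, centring or direction. Of 26540 rows, 450 controls were left out. Of 26090 gene probes, 13960 had 1 gene name and 12130 none, and 13912 were matched to the TAIR10.1 gene table. Columns without a sample numbered 0.

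Probes of a locus were averaged, values at the limits set missing, and features kept with values on at least 3 arrays at each time point. Arrays were centred on the median. The model, fitted by limma 3.58.1 (R 4.3.3) with empirical Bayes moderation, had 3 time point means plus the labelled dye, over 12 arrays. Tests were two-sided, with Benjamini-Hochberg adjustment over all 18125 features. The fit was tested on simulated data with independent normal noise and a shift by labelled dye. That simulation held neither the outlying values nor the shared deviations of these arrays, so it does not cover them. Same-numbered arrays of 4 and 12 h deviated together in 4 of 4 pairs (correlation 0.15 to 0.35), so the blocked count is given for that difference. Those pairs also share the sign of their blank spots, and differently numbered pairs of 4 and 12 h with like sign correlated at 0.16 to 0.31. Same-numbered pairs with 72 h, which have opposite signs, correlated at -0.29 to -0.10. The parts of number and sign in these deviations were not tested. Families were found by gene symbols and synonyms, as the table held no product text. Named were the 3 genes, measured listed relatives and the 5 named genes most correlated with each gene. Members and lists were chosen with earlier results of these data known. Ratios show no signal over background, and the precision is set by the number of arrays. The p-values measure the spread between arrays that the labels call biological replicates.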

Additional observations from a re-analysis of the deposited data

Results flagged for a closer look

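LOB lay on opposite sides of 0 on all arrays of 4 and 72 h and of 12 and 72 h. The differences of 1.76 between 72 h and 4 h and of 1.00 between 72 h and 12 h did not pass the limma test (adjusted p = 0.070 and 0.34).

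CLE27 differed between 72 h and 4 h by 1.11 (limma adjusted p = 0.049), and AMS by -0.77 (adjusted p = 0.0048). The CLE27 call was lost without each of 4 h replicates 1 to 4 (adjusted p = 0.061, 0.085, 0.11 and 0.11), 12 h replicates 1 to 4 (0.075, 0.074, 0.076 and 0.070) and 72 h replicates 1 and 3 (0.072 and 0.071), and without 72 h replicate 3 the difference was 0.56. It was also lost without the dye term, with a replicate block, with array weights, with no minimum number of arrays and with the arrays compared alone (adjusted p = 0.051, 0.093, 0.052, 0.058 and 0.17). The anther gene SPL lay above 0 on all arrays at 4 h and below 0 at 72 h, and its difference of -0.32 did not pass (adjusted p = 0.17).

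Single arrays stood apart from the other 3 of their time point for CLE26 at 4 h (replicate 3, at -3.29), AMS at 4 h (replicate 1, at 0.35) and POL at 72 h (replicate 2, at 0.21). Chance alone flags about 1 in 20 groups of arrays in such a check.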

How the results depend on the processing

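Beside the reported setting, 21 others were run, 12 of which left out an array, and 1, with the dye term taken from the blank spots, was chosen after seeing the data. LOB kept its direction in each result under all 21. Within each time point its values lay on the same side of 0. Leaving out an array could therefore hardly turn the time point values or the differences between 72 h and the earlier times. No LOB value lay at a limit, so keeping limit values could hardly move it either. With limit values kept, CLV3 turned to -1.56, 0.84 and 0.89 at 4, 12 and 72 h and its differences to 2.40 (12 h minus 4 h) and 2.45 (72 h minus 4 h). CLE27 turned to -0.81 at 72 h (difference from 4 h -0.85) and PTL to 0.0077 at 72 h. The CLV3 difference between 72 h and 12 h turned to -0.19 with a replicate block, -0.0024 without centring and -0.64 with array weights. Array weights turned CLE40 at 4 h to 0.22 and PTL at 72 h to 0.050, and quantile normalisation turned PTL at 72 h to 0.0041. LOB at 4 h passed with quantile normalisation (-0.96) and CLV3 at 12 h with the 12 h arrays alone (-0.98). The cause was not tested.

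Leaving out single arrays gave CLV3 lowest and highest values of -0.047 and 0.63 (4 h), -1.08 and -0.88 (12 h) and -1.94 and 0.33 (72 h), with differences of -1.07 to 1.41 (72 h minus 12 h) and -2.29 to 0.19 (72 h minus 4 h). For LOB the lowest and highest values were -1.51 and -0.42 (4 h), -0.49 and -0.14 (12 h), 0.53 and 0.80 (72 h), 0.11 and 1.20 (12 h minus 4 h) and 1.11 and 2.20 (72 h minus 4 h). LAS ran from -0.28 to 0.054 at 12 h and -0.37 to -0.17 at 72 h, with differences of -0.24 to 0.10 (12 h minus 4 h), -0.33 to 0.012 (72 h minus 12 h) and -0.32 to -0.12 (72 h minus 4 h). Of relatives, CLE26 ran from -1.23 to 0.10 (4 h) and from -0.47 to 0.11 (72 h), CLE27 from -0.082 to 0.18 at 4 h, CLE40 from -0.60 to 0.31 at 4 h and PTL from -0.086 to 0.078 at 72 h.

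Counts of features past the threshold moved more. They were 2009, 2867 and 3758 at 4, 12 and 72 h and 441, 750 and 1549 for 12 h minus 4 h, 72 h minus 12 h and 72 h minus 4 h. With only the arrays compared they were 1145, 4801, 614, 860, 327 and 592. Array weights gave 4619 at 4 h, 6851 at 12 h and 3095, 2807 and 3279 for the differences, and limit values kept gave 138, 236 and 873 for the differences. For 12 h minus 4 h, quantile normalisation gave 720 and the dye from the blank spots 679. Single arrays left out gave 1330 to 2733, 1739 to 3904 and 2449 to 3843 at 4, 12 and 72 h and 100 to 920, 201 to 810 and 1011 to 1685 for the differences. With a replicate block the differences gave 157, 327 and 1010. Same-numbered arrays deviated together (correlation over 0.1) in all 4 pairs of 4 and 12 h, which share the sign of the blank spots, and in 0 of the 8 pairs with 72 h, which have opposite signs and correlated below 0. The block changed no call of CLV3, LOB or LAS.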
